A study of Mus musculus with 36 samples.

Results

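The 9 genes described here make, bind or break down hyaluronan in cultured mouse lung pericyte-like cells. They are the synthases Has1, Has2 and Has3, the receptor Cd44, the binding proteins Tnfaip6 and Vcan, and Hyal1, Hyal2 and Cemip, which take part in breakdown. They were chosen by symbol, through the Ensembl identifiers of the count table, and are 9 of 48795 identifiers in it. Each symbol matched 1 identifier, and all 9 genes passed the filter on low counts, as 15901 genes in all did.

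Pericyte-like cells, which resemble the cells that wrap small vessels, had been grown out of lung digests, depleted of cells with CD31, CD45 or CD326 and selected for PDGFRβ. They were exposed for 6 or 24 h to injured BALF (bronchoalveolar lavage fluid) or uninjured BALF, each mixed 1:1 with reduced-serum medium, or to media only, in which PBS took the place of the lavage fluid. The labels name neither the kind of injury nor the strain or age of the mice, and all groups carry the same cell type and differ only in fluid, hours and sex. Each fluid at each time had 3 female and 3 male libraries, so 6 libraries a treatment and time and 36 in all, made with a stranded mRNA kit. Nothing in the labels ties a group's libraries to separate animals or cultures. The p-values therefore measure the spread between these libraries alone, which may be technical.

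Hyaluronan is a long unbranched sugar polymer that synthases spin out of the plasma membrane from UDP-glucuronic acid and UDP-N-acetylglucosamine. Proteins that bind it, such as versican and the product of Tnfaip6, build it into a pericellular coat, and cells hold it through CD44. Hyaluronidases and the CEMIP protein cut it into fragments, and hyaluronan is known to build up in injured lung.

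Total counts ran from 17134840 to 35991683 a library. In 10 of the 12 groups of fluid, sex and time the libraries numbered 1 and 2 were the closest pair, with a median SD over genes of 0.227 in the log2(CPM + 1) difference, against 0.426 between numbers 1 and 3. Should they share an origin, n is smaller than 6, so calls that end when these libraries are summed are named with their results. In 4 libraries the number in the description starts with other digits, for reasons the labels do not give: these are replicate 3 of the male groups of uninjured BALF at 24 h, media at 6 h and media at 24 h, and replicate 2 of the female media group at 24 h. Of 12 pericyte markers 9 averaged at least 1 CPM (the usual depth-scaled count unit, here on TMM-scaled library totals), with Pdgfrb at 256 to 861 CPM, while Higd1b was at 0 and Kcnj8 and Abcc9 did not exceed 0.642 CPM in any library. Lung fibroblast markers summed to 10490 to 30940 CPM and the pericyte markers to 696 to 2617 CPM, so these lists do not set the cells apart from fibroblasts. The fibroblast sum was mostly collagen, with medians of 8538 CPM for Col1a1, 7129 for Col1a2 and 2031 for Col3a1. The other listed fibroblast genes had medians of 109.5 (Pdgfra), 49.19 (Dcn), 18.9 (Fbln1), 8.365 (Tcf21), 1.71 (Lum) and 0.4215 CPM (Pi16). Endothelial markers summed to 7.72 to 186 CPM, mesothelial ones to 18.6 to 258, macrophage ones to 13.7 to 88.2, neutrophil ones to 0.348 to 9.04 and epithelial ones to 0 to 1.08 CPM.

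With either kind of lavage fluid, some of these genes differed from media at 6 h. The members were chosen with earlier results of these data known. Their counts beside the background are therefore a description and no test of the group. With injured BALF, Has1, Has2, Hyal2 and Cd44 were higher than in media and Hyal1 and Cemip were lower, so 6 of 9 members were called at an edgeR Benjamini-Hochberg adjusted p under 0.05, where 25.2% of all 15901 genes were. With uninjured BALF the same comparison called 5 members, namely Has1, Hyal2 and Cd44 upward and Hyal1 and Cemip downward, with 18.4% of all genes called. The media libraries are shared by these comparisons. Injured against uninjured BALF, which asks what the injury adds, called 0 of 9 members at 6 h with edgeR (background 3.43%), with Has2, Hyal1 and Cd44 at unadjusted p-values of 0.00288, 0.0036 and 0.0387. DESeq2 called 1 member there, Has2, and the backgrounds given are those of edgeR. At 24 h edgeR called Hyal2 alone between the fluids (background 4.42%).

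**Figure D1:**
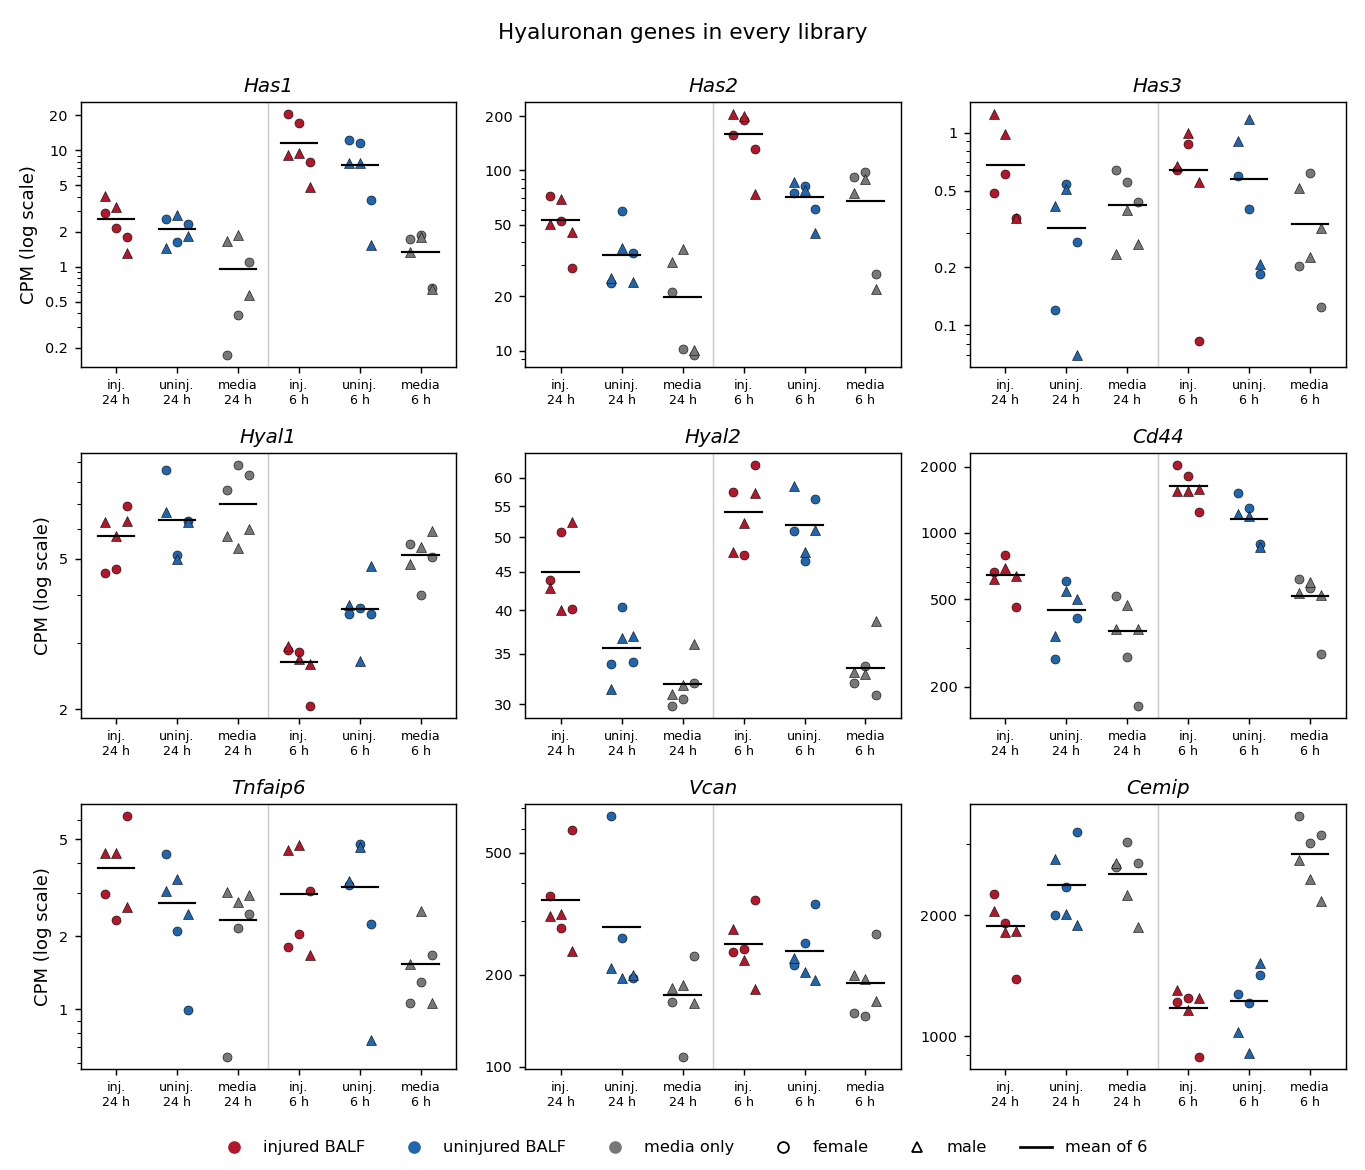
CPM (log axis) of the 9 hyaluronan genes in all 36 libraries, with injured BALF, uninjured BALF and media only at 24 h and then at 6 h, circles for female and triangles for male libraries, and a line at the mean of 6. Cemip lies lower with either fluid than in media at 6 h (means 1176, 1225 and 2843 CPM for injured BALF, uninjured BALF and media), and Cd44 lies higher (1630, 1163 and 520 CPM).

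**Figure D2:**
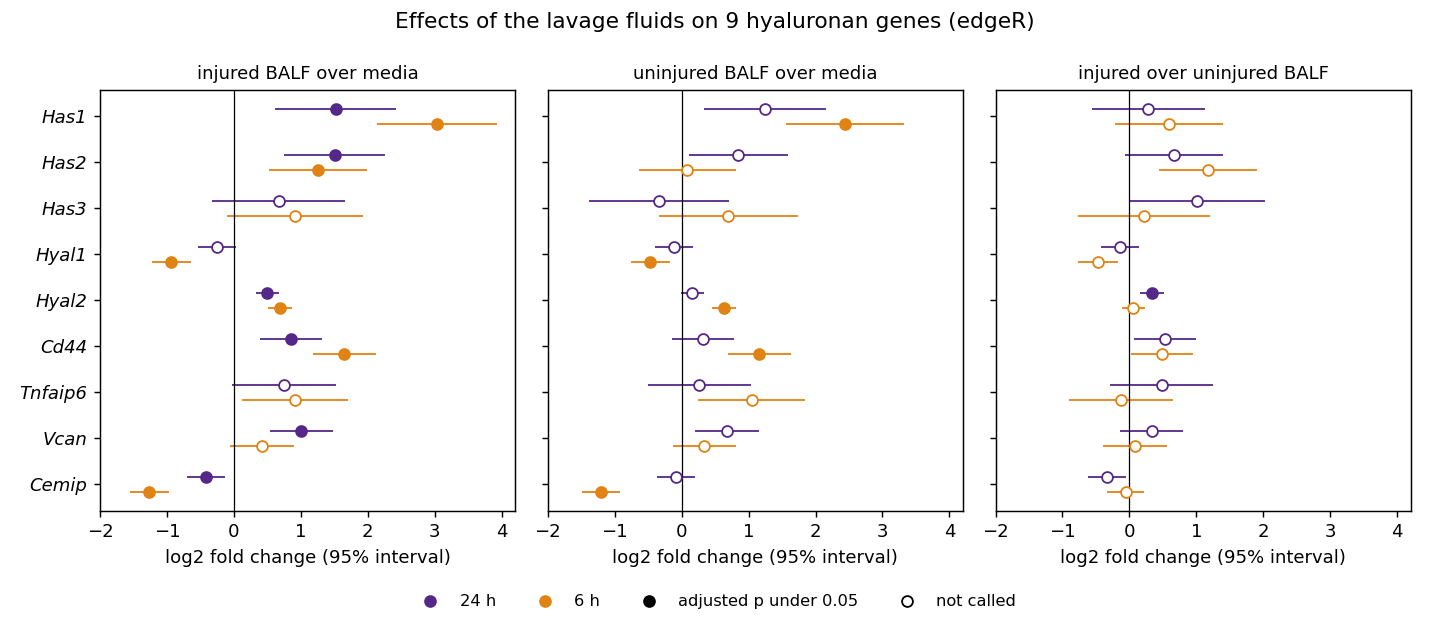
Fitted log2 fold changes of each gene with 95% intervals, for injured BALF over media, uninjured BALF over media and injured over uninjured BALF, at 24 h and 6 h. Filled points have an edgeR adjusted p under 0.05. In the right panel the 24 h value of Hyal2 (0.34) is the one filled point.

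Per kilobase of merged exon, Cemip and Cd44 were the most abundant members, at medians over 36 libraries of 160.1 and 89.9 CPM per kb. Vcan (15.2), Has2 (13.2) and Hyal2 (12.2) followed, then Tnfaip6 (1.51), Hyal1 (1.35), Has1 (0.447) and Has3 (0.0719 CPM per kb). The ranges over libraries of neighbours in this order overlapped, except between Hyal2 and Tnfaip6.

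Has1 (ENSMUSG00000003665.6, chr17:17843323-17855205 on GRCm38, minus strand) encodes a synthase that many resting cells transcribe little. At 6 h it had 4.86, 9.36 and 20.3 CPM (lowest, median and highest library) with injured BALF, 1.54, 7.76 and 12.2 CPM with uninjured BALF and 0.638, 1.53 and 1.88 CPM in media. All 6 injured BALF libraries lay above every media library, and 5 of 6 uninjured BALF libraries did. The log2 fold change over media was 3.04 ± 0.43 with injured BALF (± SE, edgeR adjusted p = 5.71e-06), an 8.20-fold difference, and 2.44 ± 0.43 with uninjured BALF (adjusted p = 0.000177). Between the fluids it was 0.59 ± 0.39 (edgeR adjusted p = 0.582), with overlapping ranges and a higher value with injured BALF in all 6 pairs of same-sex, same-numbered libraries. Has1 is also a mesothelial gene, and at 6 h the mesothelial markers summed to 30.96 to 229 CPM with injured BALF (mean 74.9), 49.0 to 258 CPM with uninjured BALF (mean 93.4) and 18.6 to 92.0 CPM in media (mean 51.5). The highest mesothelial sum with each fluid was in male replicate 3, which held the lowest Has1 of its group (4.86 CPM with injured and 1.54 CPM with uninjured BALF). In the other libraries of these groups the mesothelial markers summed to at most 74.0 CPM with injured and 86.1 CPM with uninjured BALF. The part of mesothelial cells in the Has1 difference was not tested. Without the 4 libraries of differing description numbers, the log2 fold change of injured BALF over media was 2.87 (edgeR adjusted p = 7.89e-05).

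At 24 h Has1 had 1.31, 2.51 and 4.04 CPM (lowest, median and highest) with injured BALF, 1.44, 2.07 and 2.79 CPM with uninjured BALF and 0.174, 0.825 and 1.86 CPM in media. The ranges overlapped in each comparison. Injured BALF over media was still called, at 1.52 ± 0.44 (edgeR adjusted p = 0.0127), but not once libraries 1 and 2 were summed (adjusted p = 0.16) or the 4 libraries were left out (adjusted p = 0.0815). Uninjured BALF over media was 1.24 ± 0.44 (edgeR adjusted p = 0.23). Has1 was lower at 24 h than at 6 h with injured BALF, at -2.10 ± 0.41 on the log2 scale (edgeR adjusted p = 0.000374) and with no overlap, and with uninjured BALF, at -1.78 ± 0.41 (adjusted p = 0.00159). With libraries 1 and 2 summed the uninjured BALF difference had an adjusted p of 0.0765.

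Has2 (ENSMUSG00000022367.7, chr15:56665627-56694539 on GRCm38, minus strand) encodes the synthase that mouse embryos need for heart development and that made up most synthase transcripts here. Its 6 h levels were 74.2, 174 and 204 CPM (lowest, median and highest library) with injured BALF, 44.7, 76.4 and 85.8 CPM with uninjured BALF and 21.9, 82.4 and 98.1 CPM in media. With injured BALF 5 of 6 libraries exceeded every library of uninjured BALF and of media, the exception being male replicate 3. Uninjured BALF libraries lay wholly within the range of the media ones. The log2 fold change of injured over uninjured BALF was 1.17 ± 0.36, or 2.25-fold, with an edgeR adjusted p of 0.0723, so it was not called. At 6 h in these fluids the same-numbered libraries of a sex deviated together (correlations 0.333 to 0.654 in all 6 pairs). With the replicate number as a block the log2 fold change was 1.13 and the edgeR adjusted p 0.00454. With the block set within each sex it was 1.13 with an adjusted p of 0.00565. Either block was fitted over all 36 libraries, so neither is a paired test of these fluids at 6 h alone. Over all groups, same-numbered libraries of a sex correlated from -0.491 to 0.654. Has2 was higher with injured BALF in 6 of 6 pairs, by log2 ratios of 0.733 to 1.367. DESeq2 gave an adjusted p of 0.047, and edgeR called Has2 without any 1 of 4 libraries: male injured BALF 6 h replicate 3 (1.34, adjusted p = 0.0282), or replicate 3 of female media at 6 h (1.17, 0.041), of male media at 6 h (1.17, 0.0441) or of male media at 24 h (1.17, 0.0479). The media libraries are outside this comparison and enter it only through the shared fit. Over all 36 single leave-outs the edgeR adjusted p ran from 0.0282 to 0.181. With libraries 1 and 2 summed the adjusted p was 0.515.

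**Figure D3:**
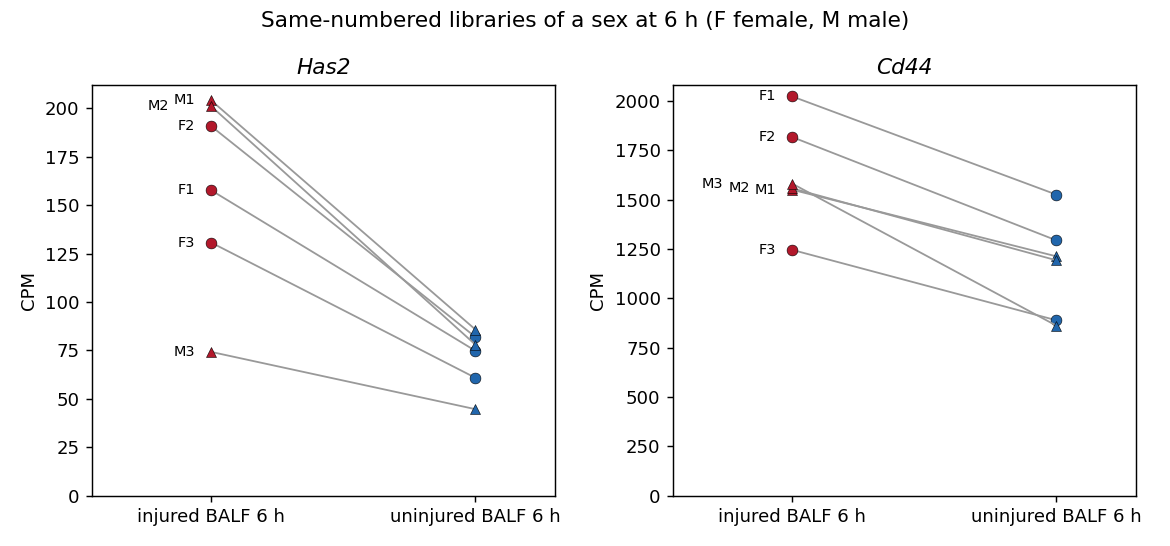
CPM of Has2 and Cd44 at 6 h in injured BALF (left) and uninjured BALF (right) libraries, with lines joining libraries of the same sex and replicate number. In each pair the injured BALF library is the higher one, by log2 ratios of 0.733 to 1.367 for Has2 and 0.355 to 0.876 for Cd44.

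Against media, Has2 rose with injured BALF at 6 h by 1.25 ± 0.36 (edgeR adjusted p = 0.0103, and 0.0701 with libraries 1 and 2 summed), while with uninjured BALF the value was 0.08 ± 0.35 (adjusted p = 0.907; 95% interval -0.64 to 0.81). Female and male media replicates 3 held 26.4 and 21.9 CPM, against 75.1 to 98.1 CPM in the other 4 media libraries. At 24 h Has2 had 28.7, 51.5 and 71.9 CPM with injured BALF, 23.7, 30.0 and 59.5 CPM with uninjured BALF and 9.47, 15.6 and 36.5 CPM in media. With injured BALF 5 of 6 libraries exceeded all media libraries, at 1.51 ± 0.37 on the log2 scale (edgeR adjusted p = 0.00332). The fluids differed by 0.66 ± 0.36 (adjusted p = 0.363), and uninjured BALF exceeded media by 0.85 ± 0.36 (adjusted p = 0.357). Neither of these passed.

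Has2 was the one member called lower at 24 h than at 6 h under all 3 treatments, although Has1, Cd44 and Hyal2 also had negative values in each. The log2 fold changes of 24 h over 6 h were -1.59 ± 0.36 with injured BALF (edgeR adjusted p = 0.00159), -1.08 ± 0.36 with uninjured BALF (adjusted p = 0.0231) and -1.84 ± 0.37 in media (adjusted p = 0.0049). All 6 injured BALF libraries of 24 h lay below all 6 of 6 h, with the 71.9 CPM of the highest just under the 74.2 CPM of the lowest. With libraries 1 and 2 summed, the differences in uninjured BALF and in media had adjusted p-values of 0.134 and 0.104. The uninjured BALF difference also lost its call without any 1 of 4 libraries, with adjusted p-values up to 0.0693 (without female uninjured BALF 24 h replicate 1). Among all genes, 27% were called between the times with injured BALF, 30.7% with uninjured BALF and 6.84% in media.

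Has3 (ENSMUSG00000031910.14, chr8:106870242-106884566 on GRCm38, plus strand) had 2 to 30 counts in a library and 0.0702 to 1.24 CPM. Its largest log2 fold change between treatments was 1.01 ± 0.49, for injured over uninjured BALF at 24 h (edgeR adjusted p = 0.293), and it was called in no comparison. Its 95% interval there ran from -0.0002 to 2.02, which includes no difference. Per kilobase, Has2 made up 86.4 to 98.1% of the summed synthase level of a library, Has1 0.756 to 13.2% and Has3 0.04 to 3.40%. The share of Has1 at 6 h averaged 6.32 ± 2.54% with injured BALF, 8.29 ± 3.76% with uninjured BALF and 1.97 ± 0.390% in media (SD, n = 6 each). The summed level was 40.4 ± 12.6 CPM per kb with injured BALF, 18.5 ± 4.48 with uninjured BALF and 16.2 ± 8.21 in media at 6 h. At 24 h it was 13.2 ± 3.91, 8.54 ± 3.25 and 4.93 ± 2.90 CPM per kb in the same order of groups. Has2 shares 182 bp of exon with the antisense gene Has2os (0.329 to 1.56 CPM) and Has3 352 bp with Chtf8 on the other strand (115 to 160.0 CPM). The sources used here do not state whether counting used strand, which leaves the low Has3 counts uncertain.

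**Figure D4:**
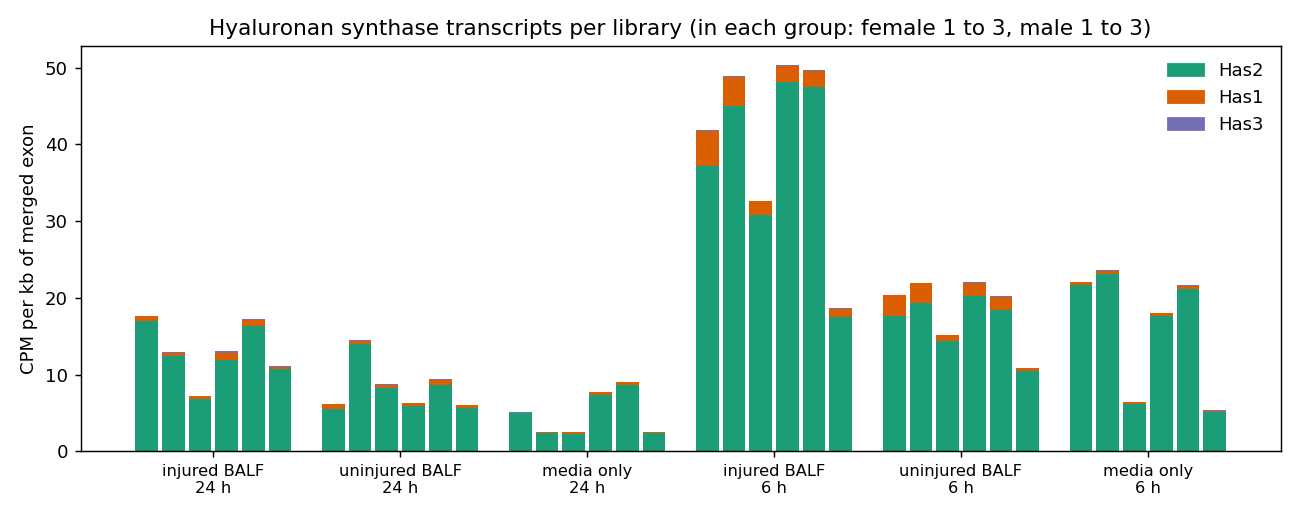
Stacked CPM per kilobase of merged exon of Has2, Has1 and Has3 in each library, in order of female and male replicates 1 to 3 within each group. Has2 fills most of every bar, and the bars of injured BALF at 6 h average 40.4 CPM per kb.

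Cd44 (ENSMUSG00000005087.17, chr2:102811141-102901665 on GRCm38, minus strand) encodes the main cell-surface receptor of hyaluronan. Cells at 6 h held 1246, 1570 and 2024 CPM (lowest, median and highest library) with injured BALF, 862, 1203 and 1526 CPM with uninjured BALF and 282, 549 and 619 CPM in media. Every library of either fluid lay above every media library. The log2 fold change over media was 1.65 ± 0.23 with injured BALF (edgeR adjusted p = 4.15e-06), or 3.14-fold, and 1.16 ± 0.23 with uninjured BALF (adjusted p = 0.000584), or 2.24-fold. Injured BALF exceeded uninjured BALF in 6 of 6 pairs, by 0.49 ± 0.23 in the fit, which did not pass (edgeR adjusted p = 0.327, and 0.174 with the replicate block). Cd44 is also a leukocyte gene: at 6 h the macrophage markers summed to 56.9 to 82.0 CPM with injured BALF, 54.2 to 80.6 with uninjured BALF and 13.9 to 71.9 in media, and Ptprc, which encodes CD45, was at most 1.62 CPM in any library. The part of such cells in the Cd44 difference was not tested. Without the 4 libraries of differing description numbers, the log2 fold change of injured BALF over media was 1.63 (edgeR adjusted p = 9.47e-05).

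At 24 h Cd44 had 462, 652 and 793 CPM with injured BALF, 269, 455 and 603 CPM with uninjured BALF and 164, 366 and 516 CPM in media. With injured BALF 5 of 6 libraries exceeded all media libraries and 5 of 6 exceeded all uninjured BALF ones. Injured BALF over media was 0.85 ± 0.23 (edgeR adjusted p = 0.00666). The differences of injured from uninjured BALF, 0.54 ± 0.23 (adjusted p = 0.202), and of uninjured BALF from media, 0.32 ± 0.23 (adjusted p = 0.659), did not pass. Cd44 was lower at 24 h than at 6 h with injured BALF (-1.34 ± 0.23, edgeR adjusted p = 7.9e-05) and with uninjured BALF (-1.38 ± 0.23, adjusted p = 4.69e-05), in neither case with overlap, and stood at -0.54 ± 0.23 in media (adjusted p = 0.142, or 0.0167 at -0.81 without female media 24 h replicate 1). In bulk RNA, fewer cells of a type and less RNA per cell cannot be told apart for this or any other member.

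Vcan (ENSMUSG00000021614.16, chr13:89655312-89742509 on GRCm38, minus strand) encodes versican, a large proteoglycan that carries hyaluronan in the matrix. The 6 h libraries had 179, 240 and 351 CPM (lowest, median and highest) with injured BALF, 192, 221 and 341 CPM with uninjured BALF and 146, 179 and 272 CPM in media, with overlapping ranges and no call. At 24 h it had 239, 313 and 593 CPM with injured BALF, 195, 205 and 657 CPM with uninjured BALF and 108, 172 and 231 CPM in media. All 6 injured BALF libraries of 24 h lay above all media ones, at 1.01 ± 0.23 on the log2 scale (edgeR adjusted p = 0.00202), or 2.01-fold. That comparison called 6 of 9 members, Has1, Has2, Hyal2, Cd44 and Vcan upward and Cemip downward, with 23.7% of all genes called. Injured over uninjured BALF was 0.33 ± 0.23 (adjusted p = 0.512). Female uninjured BALF 24 h replicate 1 held 657 CPM of Vcan against 195 to 263 CPM in the other 5, and without it that difference was 0.69 with an edgeR adjusted p of 0.041. Vcan of uninjured BALF over media at 24 h was 0.68 ± 0.23 (adjusted p = 0.203), and this comparison called 0 of 9 members with edgeR (background 0.868%) and 0 with DESeq2, with Has1, Has2 and Vcan at unadjusted p-values of 0.0092, 0.0273 and 0.00683.

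Tnfaip6 (ENSMUSG00000053475.5, chr2:52038009-52056686 on GRCm38, plus strand) encodes TSG-6, which moves heavy chains of inter-alpha-inhibitor onto hyaluronan and is known as an inflammation-induced gene. It was sparse, at 11 to 224 counts in a library. At 6 h it had 1.67, 2.56 and 4.74 CPM with injured BALF, 0.748, 3.32 and 4.78 CPM with uninjured BALF and 1.06, 1.42 and 2.55 CPM in media. Its log2 fold changes over media were 0.92 ± 0.39 with injured BALF (edgeR adjusted p = 0.0848) and 1.04 ± 0.39 with uninjured BALF (adjusted p = 0.0594), neither of them called. The uninjured BALF value was called by DESeq2 (adjusted p = 0.0346) and by edgeR without any 1 of 6 libraries, with the lowest adjusted p without male uninjured BALF 6 h replicate 3 (1.26, adjusted p = 0.0144). The injured BALF value was called without male injured BALF 6 h replicate 3 (1.09, adjusted p = 0.0452). At 24 h the range was 2.33 to 6.21 CPM with injured BALF, 0.995 to 4.35 CPM with uninjured BALF and 0.639 to 3.05 CPM in media, with no call.

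Cemip (ENSMUSG00000052353.13, chr7:83932857-84086502 on GRCm38, minus strand) encodes a hyaluronan-depolymerising protein known from human skin fibroblasts. It was the most abundant member by the median over all 36 libraries. At 6 h Cd44 had the higher mean with either fluid, at 240.5 against 96.1 CPM per kb with injured and 171.6 against 100.1 with uninjured BALF. In media at 6 h Cemip was the higher, at 232.4 against 76.7 CPM per kb. Cemip libraries at 6 h held 888, 1230 and 1306 CPM (lowest, median and highest library) with injured BALF, 910 to 1519 CPM with a median of 1240 with uninjured BALF, and 2168, 2877 and 3518 CPM in media. No library of either fluid reached the lowest media library. The log2 fold change over media was -1.26 ± 0.14 with injured BALF (edgeR adjusted p = 1.3e-07) and -1.20 ± 0.14 with uninjured BALF (adjusted p = 8.79e-07), to 0.417 and 0.434 of the media level. The fluids differed by -0.06 ± 0.14 (adjusted p = 0.928; 95% interval -0.34 to 0.23).

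At 24 h Cemip had 1388, 1870 and 2262 CPM with injured BALF, 1886, 2178 and 3226 CPM with uninjured BALF and 1863, 2662 and 3035 CPM in media. Injured BALF over media was -0.42 ± 0.14 (edgeR adjusted p = 0.0265), a call lost with libraries 1 and 2 summed (adjusted p = 0.123) and without any 1 of 6 libraries, with adjusted p-values up to 0.0944 (without female injured BALF 24 h replicate 3). Uninjured BALF over media was -0.09 ± 0.14 (adjusted p = 0.886). Cemip was higher at 24 h than at 6 h by 0.68 ± 0.14 with injured BALF (edgeR adjusted p = 0.000591) and by 0.95 ± 0.14 with uninjured BALF (adjusted p = 9.95e-06), without overlap in either, and stood at -0.16 ± 0.14 in media (adjusted p = 0.499). The effect of each fluid against media itself differed between the times: 24 h minus 6 h was 1.12 ± 0.20 for uninjured BALF (edgeR adjusted p = 0.0021, background 1.96%) and 0.84 ± 0.20 for injured BALF (adjusted p = 0.0168, background 2.6%). With libraries 1 and 2 summed these had adjusted p-values of 0.141 and 0.243.

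Hyal2 (ENSMUSG00000010047.12, chr9:107567945-107572779 on GRCm38, plus strand) encodes a cell-surface hyaluronidase that cuts long chains. Levels at 6 h were 47.3, 54.7 and 62.3 CPM (lowest, median and highest) with injured BALF, 46.5, 51.1 and 58.5 CPM with uninjured BALF and 30.9, 33.0 and 38.7 CPM in media, so both fluids lay wholly above media. The log2 fold change over media was 0.69 ± 0.09 with injured BALF (edgeR adjusted p = 7.09e-07) and 0.63 ± 0.09 with uninjured BALF (adjusted p = 6.52e-06). At 24 h Hyal2 had 40.0, 43.4 and 52.3 CPM with injured BALF, 31.4, 35.4 and 40.4 CPM with uninjured BALF and 29.8, 31.4 and 36.1 CPM in media. All 6 injured BALF libraries lay above all media ones (0.50 ± 0.09, edgeR adjusted p = 9.04e-05), and 4 of 6 lay above all uninjured BALF ones. Injured over uninjured BALF was 0.34 ± 0.09, or 1.26-fold, with an edgeR adjusted p of 0.0182. That call was lost with libraries 1 and 2 summed (adjusted p = 0.103), with the groups compared fitted alone (adjusted p = 0.0741) and without any 1 of 4 libraries, at adjusted p-values of 0.0639 (female injured BALF 24 h replicate 2), 0.0679 (female uninjured BALF 24 h replicate 3), 0.0715 (male uninjured BALF 24 h replicate 1) and 0.0723 (male injured BALF 24 h replicate 3).

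At 24 h the neutrophil markers summed to 5.35 to 9.04 CPM with injured and 0.762 to 4.74 CPM with uninjured BALF, the pericyte ones to 696 to 1036 and 1002 to 1572 CPM, and the fibroblast ones to 10490 to 22900 and 14010 to 25900 CPM. Of the 7 neutrophil genes 1 averaged at least 1 CPM over all libraries. With injured BALF at 24 h Mmp8 averaged 4.08 and S100a8 2.44 CPM, while Ly6g and Ngp were at 0. The part of these cell types in the Hyal2 difference was not tested.

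Uninjured BALF over media was 0.16 ± 0.09 for Hyal2 at 24 h (edgeR adjusted p = 0.499), and the difference between this effect at 24 h and at 6 h was -0.47 ± 0.12 (adjusted p = 0.0344, and 0.202 with libraries 1 and 2 summed). That call was also lost without any 1 of 18 libraries, at adjusted p-values of 0.0505 to 0.08. For the injured BALF effect the difference was -0.19 ± 0.12 (adjusted p = 0.488). Hyal2 was lower at 24 h than at 6 h with injured BALF (-0.26 ± 0.08, edgeR adjusted p = 0.0206) and with uninjured BALF (-0.54 ± 0.09, adjusted p = 2.35e-05). The first of these lost its call without any 1 of 5 libraries, with adjusted p-values up to 0.0828 (without female injured BALF 24 h replicate 3), and with libraries 1 and 2 summed (0.0608).

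Hyal1 (ENSMUSG00000010051.15, chr9:107576927-107581710 on GRCm38, plus strand), the neighbour of Hyal2, encodes the lysosomal hyaluronidase that digests the fragments. At 6 h it had 2.04, 2.78 and 2.93 CPM (lowest, median and highest) with injured BALF, 2.68, 3.64 and 4.78 CPM with uninjured BALF and 4.002, 5.21 and 5.92 CPM in media. All injured BALF libraries lay below all media ones, and 5 of 6 uninjured BALF ones did. The log2 fold change over media was -0.93 ± 0.15 with injured BALF (edgeR adjusted p = 1.86e-05) and -0.47 ± 0.14 with uninjured BALF (adjusted p = 0.0212). The second call was lost without the 4 libraries of differing description numbers (adjusted p = 0.0742), with libraries 1 and 2 summed (0.104) and without any 1 of 3 libraries, up to 0.0752 without male uninjured BALF 6 h replicate 2. Injured over uninjured BALF at 6 h was -0.46 ± 0.15 (edgeR adjusted p = 0.0839, and 0.0628 with the replicate block), lower in 5 of 6 pairs, and without male uninjured BALF 6 h replicate 2 it was -0.56 (adjusted p = 0.0265).

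At 24 h Hyal1 had 4.58 to 6.91 CPM with injured BALF, 5.00 to 8.61 CPM with uninjured BALF and 5.34 to 8.83 CPM in media, and no comparison of treatments called it. It was higher at 24 h than at 6 h with injured BALF (1.10 ± 0.15, edgeR adjusted p = 2.7e-06) and with uninjured BALF (0.78 ± 0.14, adjusted p = 0.000153), with no overlap, and stood at 0.43 ± 0.14 in media (adjusted p = 0.0619, and 0.0318 with DESeq2). Hyal1 shares 1920 bp of exon with Naa80 (8.37 to 28.9 CPM) and 159 bp with Hyal3 on the same strand, so its counts depend on how shared reads were assigned, on which the sources are silent.

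The time comparisons called 6 of 9 members with injured BALF (background 27%) and the same 6 with uninjured BALF (background 30.7%): Hyal1 and Cemip higher at 24 h, and Has1, Has2, Hyal2 and Cd44 lower. In media they called Has2 alone (background 6.84%). The effect of injury itself, as the difference of injured over uninjured BALF between 24 h and 6 h, called 0 of 9 members with edgeR (background 0.239%) and 0 with DESeq2, with Hyal2 alone at an unadjusted p under 0.05 (0.28 ± 0.12, edgeR adjusted p = 0.528). Female against male libraries called 0 of 9 members with edgeR (background 5.35%) and 0 with DESeq2, with Vcan alone at an unadjusted p under 0.05: it was higher in female libraries by 0.34 ± 0.13 (edgeR adjusted p = 0.165). The injury effect in female minus male libraries called 0 members at 6 h and 0 at 24 h (background 0% at each) with edgeR or DESeq2, and 0 had an unadjusted p under 0.05.

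Promoters of 7 of the 9 members were found in RefSeq on GRCm38.p6. Those of the members called against media with both fluids at 6 h are shown as the 250 bases before the RefSeq start, on the gene's strand. Called upward were Has1 (chr17:17855189-17855438), Cd44 (chr2:102901666-102901915) and Hyal2 (chr9:107568913-107569162). Called downward were Hyal1 (chr9:107576700-107576949) and Cemip (chr7:84086506-84086755). Has1 and Cd44 lie on the minus strand, as does Cemip, and Hyal1 and Hyal2 on the plus strand. Capitals mark a match to the NF-kB motif, to the AP-1 motif TGANTCA, to the cAMP response element TGACGTCA or to the TATA box TATAAA, searched on both strands.
Has1: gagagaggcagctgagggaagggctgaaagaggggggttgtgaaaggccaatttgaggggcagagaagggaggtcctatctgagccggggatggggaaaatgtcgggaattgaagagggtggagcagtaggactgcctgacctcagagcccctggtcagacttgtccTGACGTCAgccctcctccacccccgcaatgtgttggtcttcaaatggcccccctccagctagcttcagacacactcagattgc
Cd44: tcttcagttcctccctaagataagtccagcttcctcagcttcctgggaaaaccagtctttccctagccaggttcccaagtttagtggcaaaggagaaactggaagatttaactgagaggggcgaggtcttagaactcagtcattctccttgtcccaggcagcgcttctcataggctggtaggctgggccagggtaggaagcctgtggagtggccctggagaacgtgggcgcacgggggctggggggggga
Hyal2: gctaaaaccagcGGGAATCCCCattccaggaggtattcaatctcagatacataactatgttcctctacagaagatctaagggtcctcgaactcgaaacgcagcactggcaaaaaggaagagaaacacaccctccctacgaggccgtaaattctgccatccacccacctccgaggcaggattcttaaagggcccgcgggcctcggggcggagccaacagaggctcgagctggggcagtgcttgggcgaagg
Hyal1: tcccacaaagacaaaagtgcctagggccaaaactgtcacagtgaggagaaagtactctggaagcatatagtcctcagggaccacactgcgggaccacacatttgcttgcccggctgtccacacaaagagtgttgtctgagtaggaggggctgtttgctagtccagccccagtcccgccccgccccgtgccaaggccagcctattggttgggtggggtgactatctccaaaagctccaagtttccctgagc
Cemip: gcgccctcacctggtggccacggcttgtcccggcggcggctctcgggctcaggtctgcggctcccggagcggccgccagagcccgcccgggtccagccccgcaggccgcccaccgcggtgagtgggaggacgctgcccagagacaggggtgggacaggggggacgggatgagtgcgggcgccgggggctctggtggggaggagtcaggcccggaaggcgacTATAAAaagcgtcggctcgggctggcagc
Has1 held the cAMP response element at bases -83 to -76 from the start, a motif found in 1.55% of 32851 promoters of this length, and with it the shorter site TGACG on each strand (17.8%). Hyal2 held an NF-kB match at -238 to -229 (7.25% of promoters). These bases are counted from a RefSeq start inside the Hyal2 span given above, which begins at 107567945. The printed Hyal2 bases therefore lie within the annotated gene and not before it. Cemip held TATAAA at -29 to -24 (12.4%), and Tnfaip6, not printed here, the AP-1 motif at -142 to -136 (6.75%). Cd44 and Hyal1 held none of these 4 motifs. The E-box CACGTG (6.02%) was in none of the 7 promoters, and the GC box GGGCGG (32.7%) was in those of Hyal1, Hyal2, Tnfaip6, Vcan and Cemip. A match describes the letters and is no measure of binding.

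Of the genes that supply the UDP-sugars, all 14 were tested and 1 rose and 1 fell with injured against uninjured BALF at 6 h, where 3.43% of all genes were called (4.42% at 24 h). Gfpt2, an entry enzyme of the hexosamine pathway, averaged 203 ± 57.5 CPM with injured and 116 ± 31.5 CPM with uninjured BALF (SD, n = 6 each; log2 fold change 0.82 ± 0.19, edgeR adjusted p = 0.0127). Uap1, which makes UDP-N-acetylglucosamine, averaged 93.2 ± 4.38 CPM with injured and 156 ± 44.7 CPM with uninjured BALF (-0.74 ± 0.13, adjusted p = 0.000446). At 24 h 0 of the 14 were called between the fluids with edgeR, 4 had an unadjusted p under 0.05, and Gfpt2 stood at 0.61 ± 0.19 (adjusted p = 0.0694). Injured BALF against media called 6 of the 14 upward and 3 downward at 6 h (25.2% of all genes called, median log2 fold change 0.16 against -0.0065 over all genes) and 8 upward and 1 downward at 24 h (23.7% of all genes called, median 0.29 against -0.0073).

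For the next lists too, the edgeR backgrounds between the fluids were 3.43% of all genes at 6 h and 4.42% at 24 h. All lists were chosen with earlier results known, so their counts are descriptions. Among 6 tested genes of 10 other hyaluronidases and glycosidases, 0 were called between the fluids at 6 h with edgeR (1 at an unadjusted p under 0.05). At 24 h 1 was called, Idua, which fell by 0.39 ± 0.08 on the log2 scale (edgeR adjusted p = 0.00515). Idua encodes a lysosomal iduronidase, and iduronic acid is not among the hyaluronan sugars named above. Of 10 tested among 11 other receptors and surface partners, 1 rose at each time: Tlr2, a pattern receptor reported to sense hyaluronan fragments, by 2.36 ± 0.30 at 6 h (edgeR adjusted p = 9.28e-06) and 1.44 ± 0.29 at 24 h (adjusted p = 0.00294). Tlr2 averaged 26.6 ± 5.88 CPM with injured and 5.18 ± 1.33 CPM with uninjured BALF at 6 h. Lyve1, the receptor of lymphatic vessels, stayed at or under 3.06 CPM in every library. Of 12 tested among 19 matrix and cross-linking genes, Ptx3, a pentraxin that joins hyaluronan complexes, rose at 6 h by 2.87 ± 0.51 (edgeR adjusted p = 0.000728; 339 ± 85.6 CPM with injured and 46.5 ± 29.8 CPM with uninjured BALF), and Itih5, which encodes an inter-alpha-trypsin inhibitor heavy chain, rose at 24 h by 1.44 ± 0.35 (adjusted p = 0.0147) at the low level of 1.70 ± 0.788 CPM with injured and 0.663 ± 0.531 CPM with uninjured BALF.

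Of 10 tested among 11 proteases that cut versican or CD44, 1 rose at 6 h with injured against uninjured BALF (background 3.43%). At 24 h 2 rose and 2 fell (background 4.42%). This list, too, was chosen with earlier results known, so its counts do not single out the proteases. Mmp9, a gelatinase, rose by 2.98 ± 0.44 at 6 h and 2.69 ± 0.43 at 24 h (edgeR adjusted p = 6.19e-05 and 0.000347). Adam17, a sheddase, rose at 24 h by 0.30 ± 0.06 (adjusted p = 0.00162). Adamts5, an aggrecanase that also cuts versican, stood at -0.99 ± 0.17 at 24 h (adjusted p = 0.000636; 151 ± 40.1 CPM with injured and 299 ± 37.5 CPM with uninjured BALF), and Adamts1 at -0.55 ± 0.16 (adjusted p = 0.0414).

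The genes whose log2 CPM followed each member most closely over the 36 libraries are given with Pearson's r. Only tested genes with an average log2 CPM of at least 2 were candidates. The values are a description, since libraries of a group share their treatment and group differences set much of r. Has2 ran closest to Chst11 (0.946), Smurf1 (0.926) and Noct (0.923). Cd44 ran closest to Ereg (0.965), Cflar (0.963) and Imp4 (0.956). Has1 had Socs5 (0.911), Sphk1 (0.907) and Bcl10 (0.903), and Hyal2 had Thop1 (0.921), Bop1 (0.911) and Odc1 (0.909). Hyal1 was nearest to Klc4 (0.941), Tcea3 (0.935) and Dyrk1b (0.918), and Cemip to Setbp1 (0.902), Tcaf1 (0.882) and Pcmtd1 (0.872). The values were lower for Vcan, with G6pdx (0.838), Cd47 (0.832) and Dgat2 (0.827), for Tnfaip6, with Adamts9 (0.837), Stc1 (0.780) and Ptgfr (0.738), and for the sparse Has3, with Akap13 (0.703), Sphk2 (0.699) and Vps37c (0.696).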

How the data were processed

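Whole-number gene counts were deposited by the authors for all 36 libraries, in 1 table of Ensembl identifiers. The submitters' processing notes name STAR 2.5.2b, RSEM 1.2.31, DESeq2 and GRCm38, without their roles, and whether counting used strand is not stated in these sources. Of 48795 identifiers 48435 (99.3%) were matched to GENCODE M21 for symbols. The counts were tested with edgeR 4.0.16 (R 4.3.3): TMM scaling, the tool's default filter on low counts (15901 genes kept), 12 groups of fluid, sex and time, a quasi-likelihood test averaging the sexes, and Benjamini-Hochberg adjustment over all 15901 genes with a call under 0.05. SE is the log2 fold change over the square root of F. Totals of 17134840 to 35991683 limit the precision of sparse genes such as Has3. CPM uses TMM-scaled totals, and CPM per kb the merged exon length.

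The members and gene lists were chosen with earlier results of these data known. Every member is named, and list genes are named where called between the fluids (at most 4 a list, by lowest p). Also named are the 3 genes most like each member by r, among tested genes with an average log2 CPM of at least 2. Same-numbered libraries of a sex correlated above 0.1 in all 6 pairs for injured against uninjured BALF at 6 h alone, so numbers were taken as pairs there. The differences of the fluids' effects against media between the times and the block within sex were chosen after seeing the data. DESeq2 1.42.0, other scalings and filters, libraries 1 and 2 summed and left-out libraries were alternatives. The fit was checked on simulated counts.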

Additional observations from a re-analysis of the deposited data

Results flagged for a closer look

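In 9 of the 54 groups of 6 libraries tested, 1 library lay far from the rest by Dixon's ratio (above 0.625), where chance gives about 1 in 20. With injured BALF these were Hyal1 at 6 h, at 2.04 CPM in female replicate 3, Cemip at 6 h, at 888 CPM in the same library, and Vcan at 24 h, at 593 CPM in female replicate 3. With uninjured BALF at 24 h they were Has2, at 59.5 CPM in female replicate 2, and Vcan, at 657 CPM in female replicate 1. In media they were Hyal2 at 6 h and at 24 h, at 38.7 and 36.1 CPM in male replicate 3 of each time, Cd44 at 6 h, at 282 CPM in female replicate 3, and Tnfaip6 at 24 h, at 0.639 CPM in female replicate 1.

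The effect of lavage fluid against media differed between 24 h and 6 h in 3 tests of the difference itself. For uninjured BALF the log2 difference, 24 h minus 6 h, was 1.12 for Cemip and -0.47 for Hyal2, and for injured BALF it was 0.84 for Cemip.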

How the results depend on the processing

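Of 34 values called for the members, all 34 were called under DESeq2, RLE size factors, a filter of 1 CPM in 6 libraries, sex ignored and either replicate block, 31 each without a filter, with only the groups compared and without the 4 libraries of differing description numbers, and 22 with libraries 1 and 2 summed. Leaving out 1 library kept 1184 of 1224 calls and leaving out a replicate number 71 of 102. In many of the 1224 fits the left-out library was outside the comparison and entered only through the shared fit. Those fits are weak trials of the call. With the replicate block by number, fitted over all 36 libraries, Has2 in injured against uninjured BALF at 6 h had 1.13 and an edgeR adjusted p of 0.00454. In the other treatment comparisons same-numbered libraries did not all correlate above 0.1, so the numbers were not read as pairs there, and the block ended none of the 34 calls.

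The share of all genes called under each setting is not given beside the member counts below, so they do not single out the members. Injured against uninjured BALF at 6 h called 1 member under DESeq2, no filter, both blocks, only the groups compared and without the 4 libraries, and at 24 h 0 with libraries 1 and 2 summed or only the groups compared. Of 24 h against 6 h in media, 2 members were called under DESeq2, 2 under the block by number, 3 under the block within sex and 0 summed. The change of the uninjured BALF effect called 1 without a filter, 1 without the 4 libraries and 0 summed, and that of the injured BALF effect 2 under DESeq2, 2 under the block by number and 0 summed. With libraries or replicate numbers left out, members called ranged over 0 to 1 for injured against uninjured BALF at 6 h and 0 to 2 at 24 h, 1 to 6 for injured BALF against media and 0 to 2 for uninjured BALF against media at 24 h, 0 to 3 for 24 h against 6 h in media, 0 to 2 for the change of either fluid's effect and 0 to 1 for female against male.

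Uncalled log2 values changed sign. Libraries 1 and 2 summed gave 0.0341 for Tnfaip6 in injured against uninjured BALF at 6 h and -0.0026 for Cd44 in the change of the injury effect. Without the 4 libraries Has2 in uninjured BALF against media at 6 h was -0.12, Tnfaip6 in the change of the injured BALF effect 0.0651, and Hyal2 and Has1 in female against male 0.0129 and -0.0295. With libraries or replicate numbers left out, injured against uninjured BALF at 6 h ran from -0.18 to 0.17 for Cemip, -0.0654 to 0.47 for Has3, -0.425 to 0.19 for Tnfaip6 and -0.018 to 0.18 for Vcan, and at 24 h from -0.26 to 0.0708 for Hyal1. Uninjured BALF against media ran from -0.15 to 0.32 for Has2 at 6 h, and at 24 h from -0.29 to 0.017 for Hyal1 and -0.25 to 0.67 for Tnfaip6. Of 24 h against 6 h, Has3 with injured BALF ran from -0.23 to 0.31, Tnfaip6 and Vcan with uninjured BALF from -0.55 to 0.20 and -0.19 to 0.44, and Vcan in media from -0.30 to 0.0329. Changes of effect ran from -0.73 to 0.0374 for Has3 and -0.42 to 0.0033 for Tnfaip6 (injured BALF), -0.003 to 0.57 for Vcan (uninjured BALF), and -0.21 to 0.25 for Cd44, -0.67 to 0.0662 for Has1 and -0.0577 to 0.71 for Vcan (injury). Female against male ran from -0.24 to 0.11 for Cd44, -0.20 to 0.29 for Has1, -0.13 to 0.0421 for Has2 and -0.0561 to 0.0347 for Hyal2. The cause of these shifts was not tested. Low counts limit Has3, Has1 and Tnfaip6.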
